A study of Mus musculus with 12 samples.

Results

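The 10 genes described here mark lineages or positions of fibroblasts in mouse skin: Dpp4, Lrig1 and Prdm1 for the upper dermis, Dlk1 and Ly6a for the lower dermis and hypodermis, Cd34, Pi16 and Dpt for adventitial and widely shared fibroblasts, En1 for a positional lineage, and Islr for stromal progenitors. They were taken by name as 10 of the 21556 genes in the raw count table, and all 10 were found. Primary fibroblasts from abdominal skin were grown from wild-type (WT, C57BL/6) mice and from mice with a constitutive whole-body Nox4 deletion (Nox4 KO, B6.129-Nox4tm1Kkr/J), bred as separate litters. Cells of both genotypes were starved of serum and then left unstimulated (control) or given TGF-β2 at 10 ng/ml for 24 h, which made 4 groups of 3 libraries, 12 in all. The age of the animals that gave the cells, and whether replicates came from separate animals, are not given for these cultures, so p-values measure the spread between these libraries, which may be technical.

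Fibroblasts of the dermis arise from precursors that split into an upper, papillary lineage, which forms the papillary dermis and dermal papillae, and a lower lineage, which forms the reticular dermis and hypodermal adipocytes. Surface proteins and transcription factors first used to sort and trace these lineages in newborn skin serve as markers of them, while adventitial fibroblasts around vessels share a Pi16, Dpt and Cd34 programme across organs. TGF-β drives fibroblasts towards contractile, matrix-producing myofibroblasts, and cultured fibroblasts are known to lose part of their positional and lineage expression.

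Library totals ran from 35118344 to 43796260 counts. Levels are given as RPKM, reads scaled to the length of a gene's merged protein-coding exons and to the library total, which allows levels of different genes to be compared. Nox4 itself read 1.31 to 2.42 RPKM in WT control, 0.636 to 1.399 in KO control, 8.56 to 16.3 in WT with TGF-β2 and 4.39 to 6.85 in KO with TGF-β2. The KO libraries thus still held Nox4 counts, and the ranges of the control groups overlapped. A count over the whole gene includes exons outside a deleted part, so it was only a partial check of the labels. The cells carried high levels of general fibroblast genes, with Col1a1, a chain of type I collagen, at 1909 to 3013 RPKM and Vim, the mesenchymal intermediate filament vimentin, at 1078 to 1653 RPKM. The 8 keratinocyte markers summed to 0.610 to 1.11 RPKM per library. The 8 myeloid markers summed to 13.5 to 116 RPKM and differed more between replicates than between treatments, with Lyz2, the macrophage lysozyme, at 9.43 to 90.8 RPKM.

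The markers covered a wide range of levels. In WT control, Ly6a led with 320.2 ± 118 RPKM (SD, n = 3), followed by Dpt with 118 ± 46.3, Islr with 24.1 ± 10.1, Lrig1 with 18.1 ± 1.78, Dlk1 with 12.9 ± 5.72, Cd34 with 8.26 ± 4.0, En1 with 6.27 ± 0.561 and Pi16 with 2.43 ± 0.314. Dpp4 at 0.314 ± 0.0679 and Prdm1 at 0.0131 ± 0.00722 lay below 1 RPKM. Ly6a stood above 99.5% of the genes in the table in that group, and Dpt above 98.3%. In the order of WT control levels, Islr, Lrig1, Dlk1 and Cd34 each overlapped the next gene in the order, while Ly6a and Dpt, Dpt and Islr, En1 and Pi16, Pi16 and Dpp4, and Dpp4 and Prdm1 did not. In KO control Dlk1 stood just below Dpt with 24.2 ± 3.01 RPKM and did not overlap Lrig1 below it, and Islr, above Lrig1 in WT control, stood below it without overlap at 13.0 ± 1.91 RPKM. With TGF-β2, Lrig1 took that place in both genotypes and overlapped neither Dpt above it nor the gene below it. The plot of RPKM by library shows these levels.

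**Figure D1:**
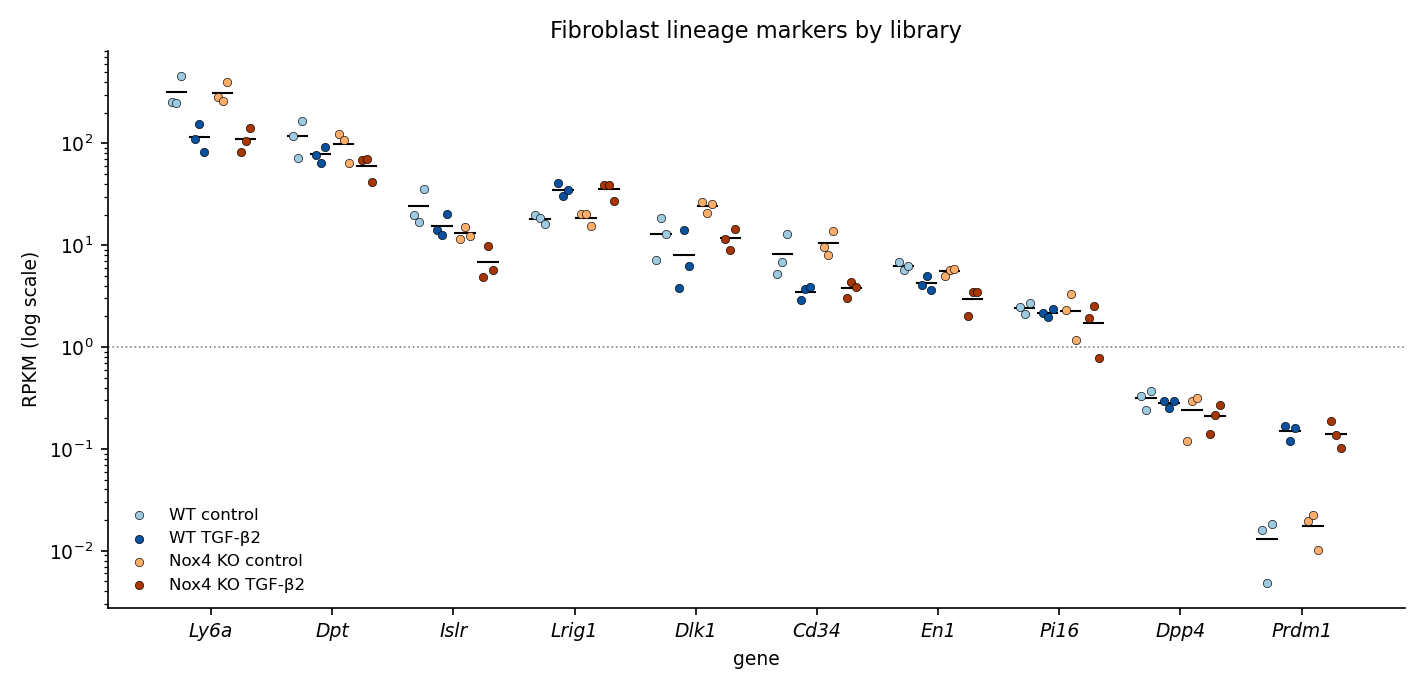
RPKM of the 10 lineage markers on a log axis, 1 point per library and 4 groups per gene, with a black line at the group mean and a dotted line at 1 RPKM. Ly6a, Cd34 and En1 sit lower and Lrig1 and Prdm1 higher with TGF-β2 in both genotypes, and Dpp4 and Prdm1 lie below the dotted line in every library.

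The genes lie on several chromosomes of GRCm38. Dpp4 (ENSMUSG00000035000) spans chr2:62330073-62412231, Ly6a (ENSMUSG00000075602) chr15:74994877-74998031, and Cd34 (ENSMUSG00000016494) chr1:194938819-194961279. Pi16 (ENSMUSG00000024011) spans chr17:29317680-29330593, Dlk1 (ENSMUSG00000040856) chr12:109452823-109463336, and Lrig1 (ENSMUSG00000030029) chr6:94604529-94700158. Prdm1 (ENSMUSG00000038151) spans chr10:44437177-44528501, and En1 (ENSMUSG00000058665) and Dpt (ENSMUSG00000026574) lie on the chromosome of Cd34 at chr1:120602418-120607992 and chr1:164796644-164824266. Islr (ENSMUSG00000037206) spans chr9:58156268-58204306 and shares 181 exon bases, 6.74% of its merged exons, with Islr2 on the same strand. Lrig1 shares 139 exon bases, 2.80%, with Slc25a26 on the opposite strand. Whether counting used strand is not given in the sources used here, so reads in these stretches are uncertain, and Ly6a has close relatives in the Ly6 family, whose shared reads were discarded as multi-mapping.

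RefSeq promoter windows on GRCm38.p6 were found for 9 of the 10 genes, all but Ly6a. The 250 bases before the start are shown for a pair of markers that were lower with TGF-β2, Cd34 and En1, and for the pair that were higher, Lrig1 and Prdm1, so that their composition can be compared. Capitals mark any of 5 short motifs searched on both strands: the SMAD palindrome GTCTAGAC, the AP-1 site TGANTCA, the TEAD core CATTCC, the TATA box TATAAA and the GC box GGGCGG.
Cd34, chr1:194938571-194938820, plus strand: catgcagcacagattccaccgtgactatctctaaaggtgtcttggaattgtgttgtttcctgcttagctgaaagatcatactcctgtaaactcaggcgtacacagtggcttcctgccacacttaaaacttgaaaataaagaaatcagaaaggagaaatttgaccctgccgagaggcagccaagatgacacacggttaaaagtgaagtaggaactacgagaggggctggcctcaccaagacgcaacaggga
En1, chr1:120602237-120602486, plus strand: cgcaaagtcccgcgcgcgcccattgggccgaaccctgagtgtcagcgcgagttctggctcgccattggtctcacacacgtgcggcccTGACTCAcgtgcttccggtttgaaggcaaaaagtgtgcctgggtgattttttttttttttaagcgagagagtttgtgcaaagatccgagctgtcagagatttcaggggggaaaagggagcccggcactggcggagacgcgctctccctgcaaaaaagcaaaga
Lrig1, chr6:94700146-94700395, minus strand: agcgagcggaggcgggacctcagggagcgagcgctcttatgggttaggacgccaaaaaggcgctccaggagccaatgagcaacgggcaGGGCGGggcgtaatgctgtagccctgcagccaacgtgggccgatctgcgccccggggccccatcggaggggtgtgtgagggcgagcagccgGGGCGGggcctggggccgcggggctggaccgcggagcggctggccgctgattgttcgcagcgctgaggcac
Prdm1, chr10:44458749-44458998, minus strand: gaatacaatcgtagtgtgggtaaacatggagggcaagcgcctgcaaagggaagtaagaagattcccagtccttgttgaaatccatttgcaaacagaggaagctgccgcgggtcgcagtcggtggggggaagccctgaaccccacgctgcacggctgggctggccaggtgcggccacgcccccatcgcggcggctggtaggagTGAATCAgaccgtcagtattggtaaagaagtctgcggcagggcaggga

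The Lrig1 window was the richest in G and C of the 9, at 71.6% against a median of 52.4% over all 32851 windows of that length, and held 26 CpG dinucleotides. Its capitals are GC boxes 162 and 71 bases before the start, and 32.7% of all windows held a GC box. The Prdm1 and En1 windows each held an AP-1 site, 48 and 163 bases before the start, as did 6.75% of all windows. En1 had 19 CpG and Prdm1 15, while the Cd34 window, at 46.4% G and C, had 6 and none of the 5 motifs. Among the windows not printed, Dpp4 held a TATA box and a TEAD core, and Pi16, Dlk1, Dpt and Islr held none. No window of the 9 held the SMAD palindrome, which 0.167% of all windows held. These matches are descriptions of letters in a window.

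In WT fibroblasts, 3 markers fell and 1 rose with TGF-β2 among the 8 that reached a mean of 1 RPKM in a compared group and could be tested. Ly6a, Cd34 and En1 fell and Lrig1 rose, by edgeR's quasi-likelihood test with a Benjamini-Hochberg adjusted p under 0.05 over 10743 genes, here called passing. That is 4 of 8, beside 22.9% of all genes tested, and 3 of 8 lower beside 12.3%. The median log2 fold change was -0.56 over the 8 markers and -0.00 over all genes tested. At a fold change of at least 2, 2 markers passed, Ly6a and Cd34, beside 7.74% of all genes. The values of TGF-β2 and control libraries did not overlap for 4 of the 8, beside 45.2% of all genes. In a bulk sample, fewer cells of a kind and less RNA per cell cannot be told apart.

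Ly6a encodes the surface protein Sca-1, anchored to the membrane by a lipid and used to sort lower dermal fibroblasts and several stem cell types. It read 256, 248 and 457 RPKM in WT control and 109.5, 156 and 81.3 RPKM with TGF-β2. All stimulated libraries lay below all control libraries, and the third control library stood well above the other two. The log2 fold change was -1.43 (SE 0.30, adjusted p = 0.0177), a level 2.69 times lower. Without the first TGF-β2 library the adjusted p was 0.062 at the same log2 fold change of -1.43.

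Cd34, a cell surface sialomucin of adventitial fibroblasts, blood progenitors and endothelium, read 5.19, 6.79 and 12.8 RPKM in WT control and 2.91, 3.69 and 3.91 RPKM with TGF-β2. The groups did not overlap, and again the third control library was the highest. The log2 fold change was -1.19 (SE 0.32, adjusted p = 0.0376). The call held without the first control library (log2 fold change -1.43, adjusted p = 0.0287). It was lost without the second or the third control library (adjusted p = 0.0716 and 0.0536) and without the first, the second or the third TGF-β2 library (0.119, 0.0684 and 0.0579), with log2 fold changes from -1.28 to -0.74. The endothelial defining genes Pecam1, Cdh5 and Vwf reached at most 0.133, 0.0946 and 0.0233 RPKM in any library.

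En1, a homeobox transcription factor whose embryonic expression traces scar-forming fibroblasts of back skin, read 6.85, 5.73 and 6.25 RPKM in WT control and 4.05, 5.03 and 3.66 RPKM with TGF-β2. The groups did not overlap, though the second library of each group came within 1 RPKM of the other. The log2 fold change was -0.53 (SE 0.15, adjusted p = 0.0451), the smallest of the passing markers. This call was lost without any library other than the second TGF-β2 library, with adjusted p from 0.084 to 0.136. It was also lost in each fit with more genes tested and in the fit over all 12 libraries, with adjusted p from 0.062 to 0.076.

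Lrig1, a transmembrane protein that dampens signalling of the EGF receptor family and marks upper dermal precursors, moved the other way. It read 19.7, 18.3 and 16.2 RPKM in WT control and 40.4, 30.1 and 34.5 RPKM with TGF-β2. The groups lay far apart relative to their spread. The log2 fold change was 0.99 (SE 0.15, adjusted p = 0.00602), 1.99-fold higher, and it passed in all 18 alternative fits.

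The other 4 markers tested in WT did not pass. Dlk1, a transmembrane protein with EGF-like repeats that holds back adipocyte differentiation, read 7.17, 18.6 and 13.0 RPKM in control and 3.78, 14.2 and 6.18 RPKM with TGF-β2. The second library was the highest in both groups, and the groups overlapped, with a log2 difference of -0.65 (95% interval -1.88 to 0.58, adjusted p = 0.397). Dpt, the matrix protein dermatopontin, read 119, 71.4 and 164 RPKM in control and 77.3, 64.1 and 92.2 RPKM with TGF-β2, a log2 difference of -0.55 (-1.23 to 0.13, adjusted p = 0.207). Islr, a leucine-rich repeat surface protein also called meflin, read 19.6, 16.9 and 35.7 RPKM against 14.1, 12.5 and 20.2 RPKM, a log2 difference of -0.58 (-1.295 to 0.141, adjusted p = 0.209). In both genes the third library was the highest of its group and the groups overlapped.

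Pi16, a secreted or membrane-bound peptidase inhibitor of adventitial fibroblasts, had the fitted change nearest to 0 of the 8 markers tested in WT. It read 2.48, 2.09 and 2.71 RPKM in control and 2.14, 1.99 and 2.38 RPKM with TGF-β2, with a log2 difference of -0.12 (95% interval -0.44 to 0.20, adjusted p = 0.552).

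In Nox4 KO fibroblasts, 4 markers fell and 1 rose with TGF-β2: Ly6a, Cd34, Dlk1 and En1 fell and Lrig1 rose. That is 5 of 8 markers tested, beside 30.3% of 10809 genes, and 4 of 8 lower beside 15% of genes. Ly6a, Cd34 and Lrig1 passed at 2-fold or more, beside 6.82% of all genes. The median log2 fold change of the 8 was -0.83, beside -0.01 over all genes, and the groups did not overlap for 6 of the 8, beside 48.5% of genes. Same-numbered KO libraries deviated together, and with the number as a block all 8 markers passed, 7 of them lower, beside 54% of all genes under that fit.

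Ly6a read 283, 262 and 399 RPKM in KO control and 82.8, 105 and 139.9 RPKM with TGF-β2. The highest stimulated library was below the lowest control library, and the log2 fold change was -1.44 (SE 0.23, adjusted p = 0.0087). Cd34 read 9.60, 8.02 and 13.8 RPKM in control and 3.04, 4.38 and 3.87 RPKM with TGF-β2, a log2 fold change of -1.39 (SE 0.23, adjusted p = 0.00935). Both passed in all 18 alternative fits. Lrig1 read 20.3, 20.3 and 15.3 RPKM in control and 39.2, 39.3 and 27.4 RPKM with TGF-β2. The third library was the lowest in both groups, and the log2 fold change was 1.00 (SE 0.19, adjusted p = 0.0137), with an adjusted p of 0.0577 without the second TGF-β2 library.

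Dlk1 was less spread in KO than in WT. It read 26.6, 20.9 and 25.3 RPKM in KO control and 11.6, 8.97 and 14.6 RPKM with TGF-β2, and the groups did not overlap. The log2 fold change was -0.97 (SE 0.18, adjusted p = 0.0133), with an adjusted p of 0.131 when all 12 libraries shared 1 estimate of the spread. En1 read 5.02, 5.74 and 5.90 RPKM in control and 2.01, 3.51 and 3.47 RPKM with TGF-β2. Its log2 fold change was -0.80 (SE 0.22, adjusted p = 0.0399), and the call was lost without any of the 3 control libraries or the second TGF-β2 library, with adjusted p from 0.0738 to 0.107.

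The plot of KO libraries joined by number shows where the block mattered. Pi16 read 2.32, 3.29 and 1.16 RPKM in KO control and 1.92, 2.51 and 0.786 RPKM with TGF-β2. Its groups overlapped widely, but the order of the libraries was the same in both, and each stimulated library lay below its same-numbered control, at 0.828, 0.763 and 0.675 times its CPM. Without the block its log2 difference was -0.30 (SE 0.52, adjusted p = 0.693), and with it the log2 fold change was -0.31 (adjusted p = 0.0266). Dpt read 122, 108.5 and 63.6 RPKM against 68.3, 69.4 and 41.9 RPKM, with a log2 difference of -0.63 (adjusted p = 0.167) without the block and -0.61 (adjusted p = 0.00122) with it. Islr read 11.6, 15.2 and 12.3 RPKM against 4.86, 9.76 and 5.75 RPKM. Its groups did not overlap, and its log2 difference was -0.85 (adjusted p = 0.0628) without the block, -0.90 (adjusted p = 0.00307) with it, and -1.22 (adjusted p = 0.024) without the second TGF-β2 library. Without the block it also passed in DESeq2 (adjusted p = 0.0127), in edgeR's exact test (0.0177) and with library size alone as the scaling (0.046).

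**Figure D2:**
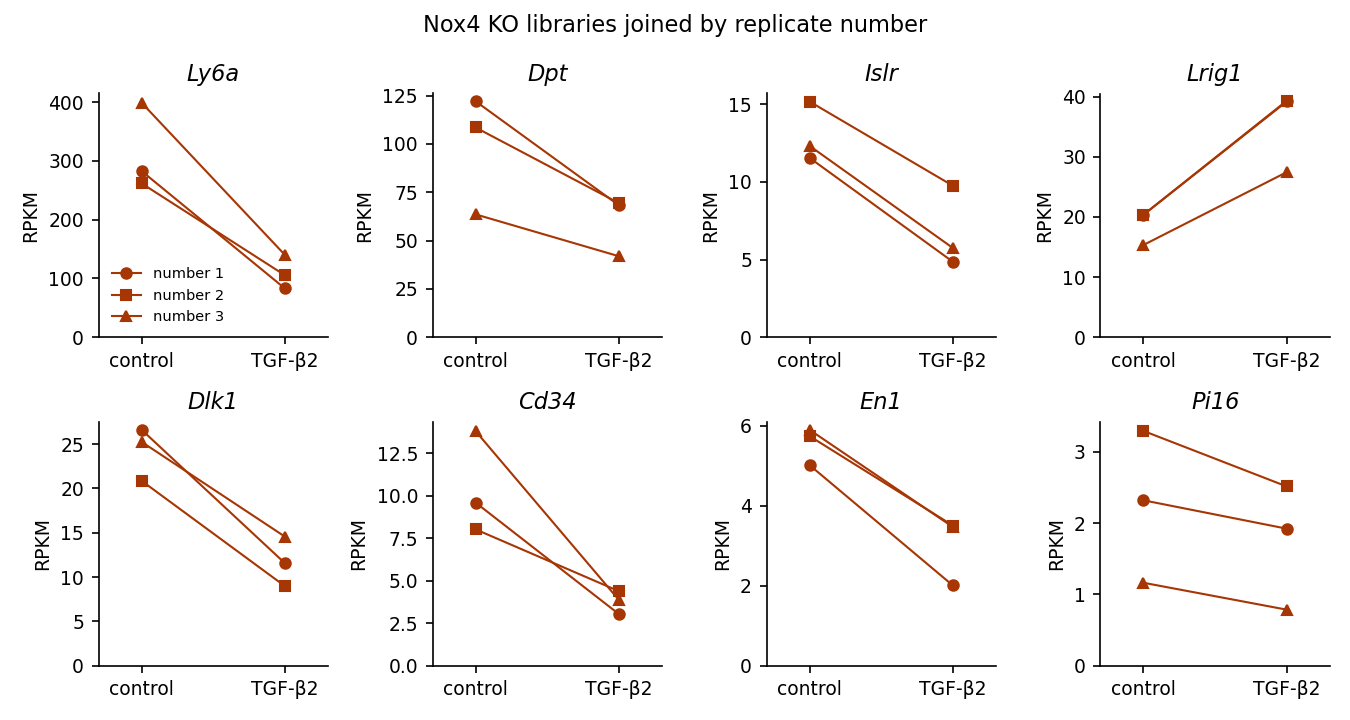
RPKM of the 8 tested markers in Nox4 KO libraries, control on the left and TGF-β2 on the right of each panel, with lines joining libraries of the same replicate number and each axis starting at 0. Every line falls in 7 panels and rises in the Lrig1 panel, and for Pi16 the lines stay apart while each of them falls.

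The markers' stimulated differences did not pass a test of being unequal between genotypes. The interaction, KO response minus WT response, passed for 0 of the 8 markers and for 0 of 10890 genes (0%) in edgeR, with 0 markers and 290 genes (2.66%) at an unadjusted p under 0.05, and DESeq2 called 0 markers and 6 genes. The interaction log2 difference was 0.01 for Ly6a (95% interval -0.89 to 0.91), 0.02 for Lrig1 (-0.55 to 0.60), -0.18 for Cd34 (-1.12 to 0.76), -0.26 for En1 (-0.87 to 0.35) and -0.29 for Dlk1 (-1.62 to 1.04). It was -0.16 for Pi16 (-1.43 to 1.11), -0.26 for Islr (-1.26 to 0.74) and -0.06 for Dpt (-1.08 to 0.95). The intervals for Dlk1, Cd34, Pi16, Islr and Dpt reach past a 2-fold difference in response. With 3 libraries a group, a difference of that size was therefore not excluded for these genes. The passing of Dlk1 in KO and not in WT is therefore not a tested difference.

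**Figure D3:**
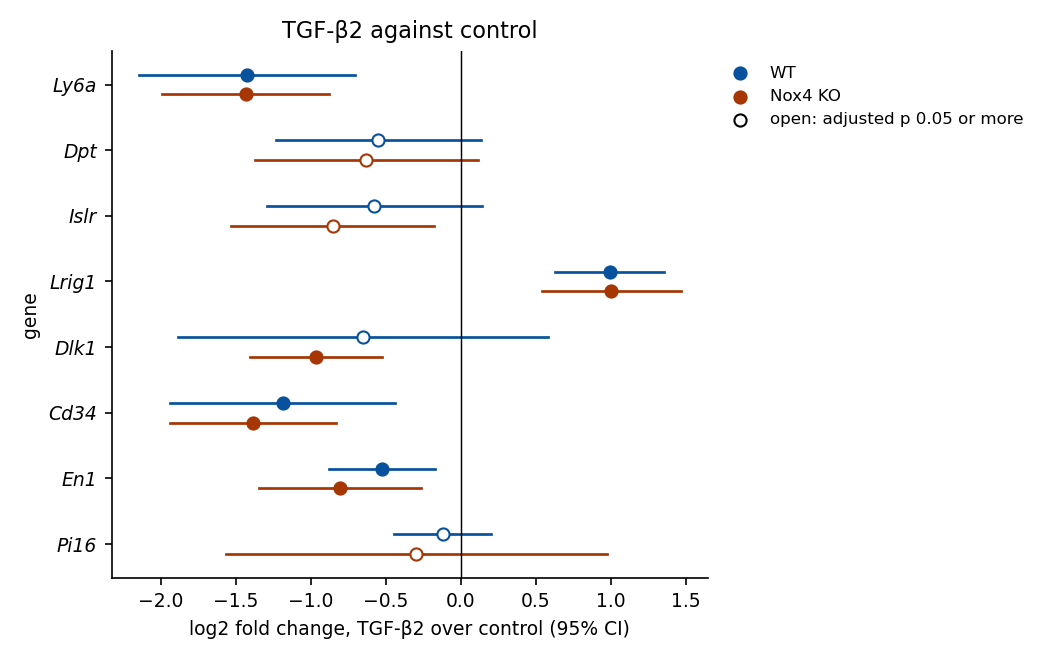
Log2 fold change of TGF-β2 over control with its 95% interval for the 8 tested markers, in WT and Nox4 KO, with filled points for an adjusted p under 0.05. Lrig1 lies near 1 in both genotypes, the other 7 markers lie below 0, and the intervals of the genotypes overlap for each gene.

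Prdm1 and Dpp4 stayed under 1 RPKM in every library, so they were outside the main test. Prdm1, the transcriptional repressor Blimp1 of papillary fibroblasts, had 3, 1 and 4 counts in WT control and 37, 24 and 32 with TGF-β2. KO control libraries had 4, 5 and 2 counts and KO TGF-β2 libraries 43, 32 and 23. The groups lay apart in both genotypes. Summed over 3 libraries, 8 reads stood against 93 in WT, a ratio per total count of 11.4 (95% exact interval 5.56 to 27.2), and 11 against 98 in KO, a ratio of 8.04 (4.30 to 16.6). These intervals cover counting error only. The two-sided exact permutation test on log2(CPM + 0.5) gave p = 0.1 in each genotype, the smallest p that 3 libraries against 3 allow. In an added edgeR fit, chosen after seeing the data, with the filter at 0.1 RPKM, Prdm1 rose with a log2 fold change of 3.52 (SE 0.43, adjusted p = 0.0019) in WT and 3.08 (SE 0.45, adjusted p = 0.00639) in KO, beside 22.6% and 28.1% of genes passing there. Prdm1 entered that fit through its TGF-β2 level, and with no filter on low values its adjusted p was 0.00224 and 0.0076. Even after TGF-β2 its level was 0.149 ± 0.027 RPKM in WT and 0.141 ± 0.0428 in KO (SD, n = 3).

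Dpp4, the surface dipeptidyl peptidase CD26 that is used to sort upper dermal and fascial fibroblasts, had 24 to 79 counts in every library. Its level was 0.239, 0.330 and 0.372 RPKM, from lowest to highest, in WT control and 0.252, 0.296 and 0.298 RPKM in WT with TGF-β2. In KO it was 0.119, 0.296 and 0.313 RPKM in control and 0.142, 0.217 and 0.270 RPKM with TGF-β2. The groups overlapped in both genotypes. The ratio of summed reads, TGF-β2 over control, was 0.898 (95% exact interval 0.726 to 1.11) in WT and 0.86 (0.679 to 1.09) in KO, and the exact permutation p was 0.5 and 0.7.

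Between genotypes, no marker passed in either condition, and no gene passed edgeR's quasi-likelihood test of the 2 groups. In control cultures 0 of 8 markers passed, beside 0% of 10767 genes, and with TGF-β2 0 of 8, beside 0% of 10439 genes. At an unadjusted p under 0.05 stood 2 markers, Dlk1 and Islr, beside 5.54% of genes in control, and 1, Islr, beside 3.22% with TGF-β2. DESeq2 called 28 and 16 genes and edgeR's exact test 17 and 7, with 0 markers among them, and the quasi-likelihood fit over all 12 libraries called 1 gene in control and 0 with TGF-β2. In these comparisons the genotypes came from separate litters, so litter and genotype cannot be told apart.

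Islr was lower in KO libraries than in WT libraries in both conditions without passing the adjusted test. In control, the KO libraries at 11.6, 15.2 and 12.3 RPKM lay below the WT libraries at 19.6, 16.9 and 35.7, a log2 difference of -0.91 (95% interval -1.58 to -0.25, unadjusted p = 0.015, adjusted p = 0.83). With TGF-β2, 4.86, 9.76 and 5.75 RPKM lay below 14.1, 12.5 and 20.2, a log2 difference of -1.18 (-1.92 to -0.45, unadjusted p = 0.00691, adjusted p = 0.835). The groups overlapped in neither condition. Groups did not overlap for 2 of 8 markers in each condition, beside 13.6% of genes in control and 10.1% with TGF-β2. Without the third WT control library the control difference was -0.55. Across the alternatives the adjusted p with TGF-β2 ran from 0.096 in DESeq2 to 0.9994. Islr is also a gene that the study picked out from these same libraries, so its direction here is not independent evidence.

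Dlk1 was the only marker tested whose control libraries lay higher in KO without overlap, at 20.9 to 26.6 RPKM against 7.17 to 18.6 RPKM, with a log2 difference of 0.87 (95% interval 0.10 to 1.64, unadjusted p = 0.0331, adjusted p = 0.83). With TGF-β2 the ranges overlapped, at 8.97 to 14.6 against 3.78 to 14.2 RPKM, with a log2 difference of 0.58 (-0.48 to 1.63, adjusted p = 0.835). En1 with TGF-β2 was at 2.01 to 3.51 RPKM in KO and 3.66 to 5.03 RPKM in WT, with no overlap and a log2 difference of -0.48 (-1.04 to 0.08, adjusted p = 0.835).

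The genotype differences of Lrig1 and Ly6a were close to 0 with narrower intervals for Lrig1. Lrig1 differed by 0.01 on the log2 scale in control (95% interval -0.36 to 0.37) and by 0.03 with TGF-β2 (-0.42 to 0.48), so a 2-fold difference lay outside both intervals. Ly6a differed by -0.06 (-0.69 to 0.57) and -0.05 (-0.67 to 0.57). Cd34 differed by 0.31 (-0.52 to 1.14) in control and 0.13 (-0.30 to 0.56) with TGF-β2, and Pi16 by -0.13 (-0.999 to 0.733) and -0.30 (-1.22 to 0.62). The signs for Lrig1 in control and for the interaction of Ly6a and Lrig1 turned under other scalings or fits, at values that stayed near 0.

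**Figure D4:**
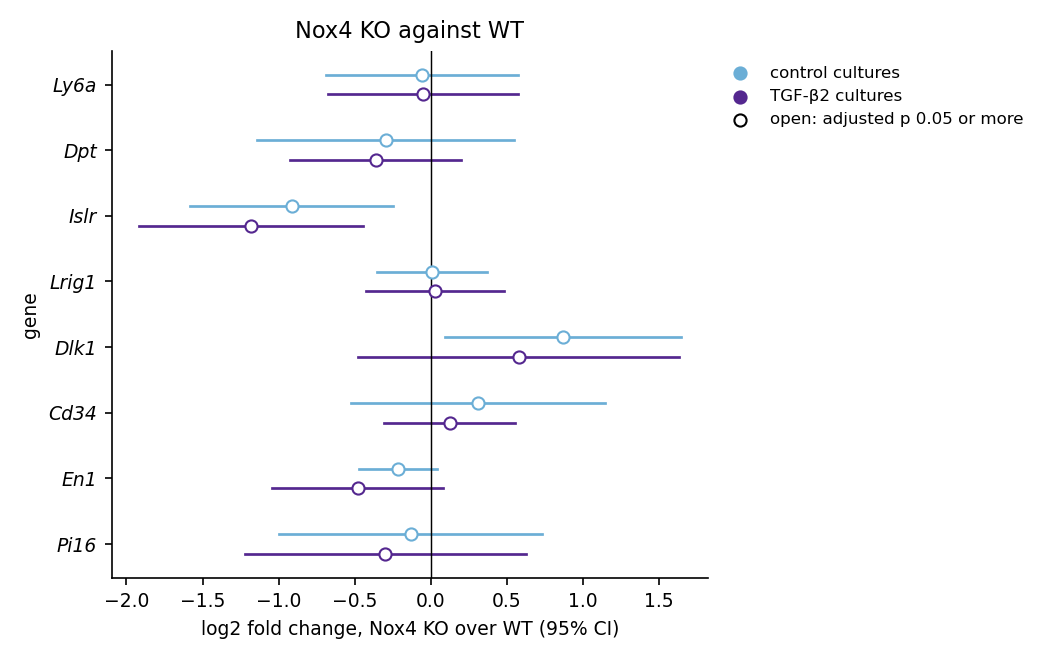
Log2 fold change of Nox4 KO over WT with its 95% interval for the 8 tested markers, in control and TGF-β2 cultures, with open points since no adjusted p was under 0.05. Islr lies below 0 and Dlk1 above 0 in both conditions, and Lrig1 lies next to 0.

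The markers differed in how alike their replicates were. In WT control the highest library was 2.59 times the lowest for Dlk1, 2.46 times for Cd34, 2.30 times for Dpt, 2.11 times for Islr and 1.84 times for Ly6a. The median over the 10597 genes at 1 RPKM or more in that group was 1.16 times, and these 5 markers spread more than 94.6% to 98.1% of those genes. Lrig1 at 1.22 times, En1 at 1.20 times and Pi16 at 1.296 times lay closer to the median. In KO control the pattern differed: Pi16 spread 2.83 times and Dlk1 1.28 times.

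The third WT control library was the highest of its group for Ly6a, Cd34, Dpt and Islr and also held the highest myeloid sum, 116 RPKM against 44.1 and 25.5 RPKM. In KO control the third library, highest for Ly6a and Cd34, held the lowest myeloid sum, 20.5 RPKM against 89.4 and 32.8 RPKM. Among the 6 myeloid markers tested, 0 passed with TGF-β2 in WT and 0 in KO, where the sums were 21.2 to 79.8 and 13.5 to 64.6 RPKM. Without that WT control library, Ly6a and Lrig1 passed in WT and Cd34 and En1 did not.

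Over the 12 libraries, each marker's nearest gene among 10890 was found by Pearson's r of log2(CPM + 0.5), given as a description of points that share treatment and depth. Ly6a and Cd34 varied together (r = 0.91) and both ran against Lrig1 (r = -0.96 and -0.90). The genes most like Ly6a were Fbxw17 (0.99) and 9530068E07Rik (0.98), and those most like Cd34 were Pnrc2 and Pdpn (0.97 each). Lrig1 was most like Mfhas1 and Klf13 (0.99 each), and En1 most like Gdf15 (0.98) and Rnf130 (0.97). Pi16 ran with the metallothioneins Mt2 (0.96) and Mt1 (0.94) and was nearly unrelated to Ly6a (0.07), Cd34 (0.09) and Lrig1 (0.01). Dpt was most like Pip4k2c and Alox5ap (0.95 each), Islr most like Serping1 (0.98) and Spry4 (0.96), and Dlk1 most like Khdrbs1 and Trim59 (0.93 each). Among the markers, Pi16 and Dpt, both of the adventitial programme, had r = 0.77, and Dpt and Islr 0.75.

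Other genes of the same lineages moved in both directions with TGF-β2. The counts below stand beside 22.9% of all genes passing in WT (10.6% higher, 12.3% lower) and 30.3% in KO (15.2% higher, 15% lower). Of 12 further upper dermis genes, 4 were tested and 3 passed in WT, 1 higher and 2 lower. Lef1, a transcription factor of Wnt signalling, rose by 3.42 on the log2 scale (adjusted p = 0.000385), while Apcdd1, a Wnt inhibitor, fell by 1.69 (adjusted p = 0.0077) and Ntn1, the guidance protein netrin-1, fell by 0.995 (adjusted p = 0.0291). In KO 3 of 4 passed: Lef1 rose by 3.097, Apcdd1 fell by 1.57 and Pdpn, the membrane glycoprotein podoplanin, fell by 0.81 (adjusted p = 0.00683, 0.001 and 0.0246). Lef1, at 0.127 to 1.79 RPKM over the 12 libraries, reached the 1 RPKM filter only through its TGF-β2 level. Apcdd1, at 0.566 to 3.08 RPKM, reached it only through its control level in both genotypes. The passing of either gene is therefore no support for a direction of the list.

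Of 12 lower dermis and hypodermis genes, 3 of 10 tested passed in WT and 3 of 9 in KO, close to the shares over all genes. Thbd, the thrombin receptor thrombomodulin, fell by 2.77 in WT and fell by 2.63 in KO, and Plin2, a coat protein of lipid droplets, rose by 2.02 and 1.91. Col14a1, a collagen of the reticular dermis, fell by 1.51 in WT (adjusted p = 0.00642), and its log2 difference in KO was -1.28 (adjusted p = 0.206). In both genotypes Col14a1 entered the test only through control, where it was higher, since its TGF-β2 mean lay below 1 RPKM. The adipocyte markers Adipoq and Plin1 reached at most 0.233 and 0.0213 RPKM, while the adipocyte list summed to 8.67 to 11.7 RPKM in WT control and 3.06 to 3.37 with TGF-β2, and to 3.72 to 8.98 and 1.57 to 2.37 in KO. Of its 3 tested genes 2 fell in WT and 1 fell in KO. The part of the adipocyte list in the Dlk1 values was not tested.

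Of 16 genes of the Pi16 and Dpt programme, 2 of 12 tested passed in WT, both lower, and 4 of 12 in KO, 3 lower and 1 higher, near or under the shares over all genes. Pdgfra, the PDGF receptor used to identify fibroblasts, fell by 3.35 in WT and fell by 2.98 in KO, and Cd55, a complement inhibitor of the cell surface, had log2 fold changes of -0.85 and -1.09. These 2 genes passed while Pi16 and Dpt of the same programme did not in the fit without the block.

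Of 15 general mesenchymal and fibroblast genes, 4 of 13 passed in WT and 6 of 12 in KO, all lower. The log2 fold changes in WT and KO were -1.52 and -1.42 for the transcription factor Prrx1, -1.37 and -1.31 for the calcium-binding S100a4, -1.19 and -0.92 for the collagen chain Col3a1, and -0.77 and -0.99 for the transcription factor Twist1. Of 12 dermal papilla and sheath genes, 4 of 6 tested passed in each genotype, all lower. The values were -4.07 and -3.74 for the growth factor Fgf10, -2.21 and -1.96 for the integrin Itga8, and -1.86 and -1.88 for the growth factor Fgf7, while Rspo3, an enhancer of Wnt signalling, had -1.88 in WT and was not tested in KO. Of the 6 tested genes, 6 reached 1 RPKM in WT control and 4 in WT with TGF-β2. Rspo3 and Fgf10 thus entered the WT test only through the group where they were high. The KO calls included Alpl of the same list (-3.99, adjusted p = 0.0279). In KO 6 genes of the list reached 1 RPKM in control and 5 with TGF-β2, so Alpl entered that test only through control. Of 14 myofibroblast genes, 3 passed in WT and 4 in KO, all higher, near the shares over all genes. Ccn2 rose by 1.57 and 1.59 and Cthrc1, a secreted protein of activated fibroblasts, by 1.38 and 1.25. Acta2, the smooth muscle actin by which myofibroblasts are recognised, did not pass, with log2 differences of 0.13 and -0.06, and neither did Cnn1 (0.27 and -0.06), Myl9 (0.12 and -0.12) or Postn (-0.08 and 0.01). The median log2 fold change was -0.89, -0.33, -0.22, -0.42, -1.87 and 0.20 for these 6 lists in WT, in the order given here, beside -0.00 over all genes. In the genotype comparisons and the interaction 0 genes of the 6 lists passed.

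**Figure D5:**
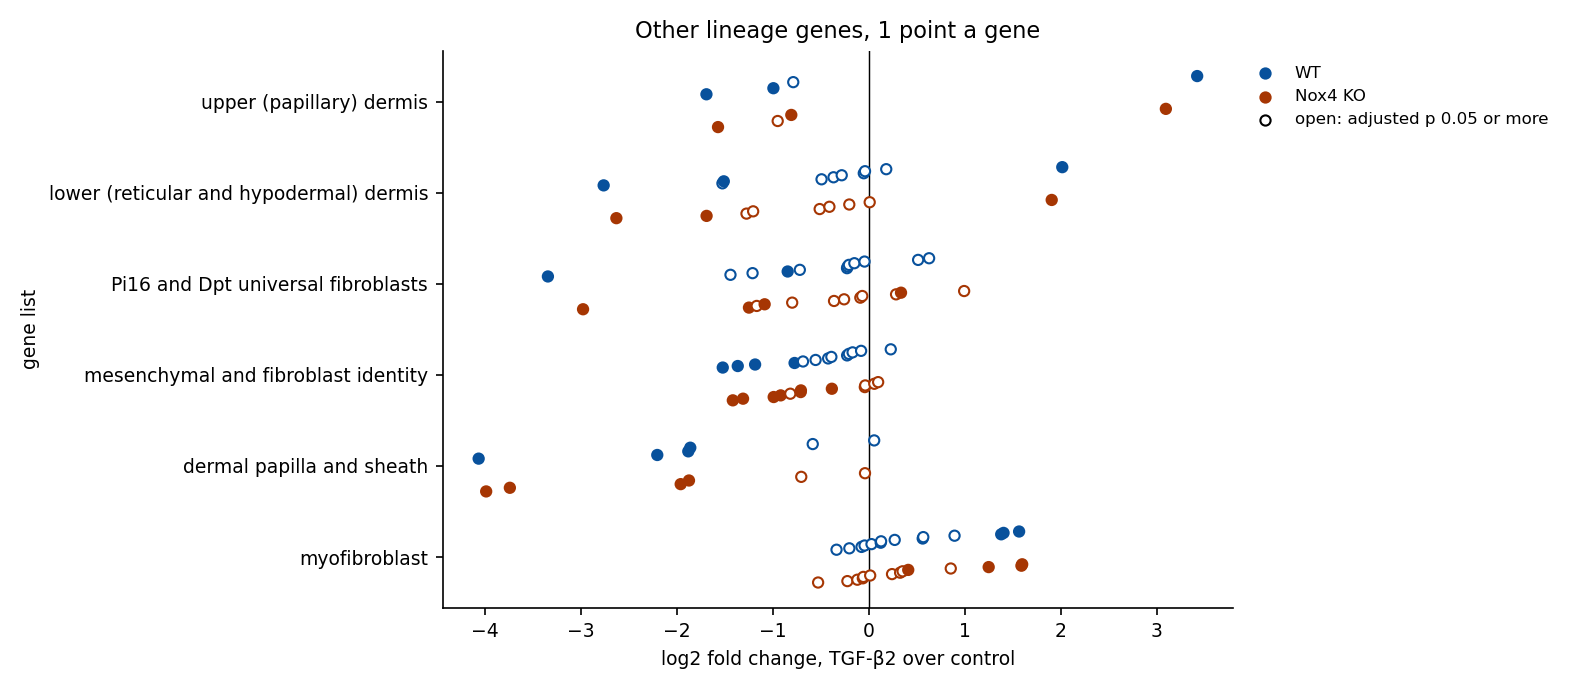
Log2 fold change of TGF-β2 over control for the tested genes of 6 lineage lists, 1 point a gene, in WT and Nox4 KO, with filled points for an adjusted p under 0.05. The filled points of the mesenchymal and the papilla and sheath lists all lie below 0, those of the myofibroblast list all lie above 0, and the upper and lower dermis lists hold both.

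Markers of other cells were mostly low. The endothelial list summed to 1.78 to 5.62 RPKM, led by the receptors Kdr at 1.48 to 4.62 and Tek at 0.111 to 1.04 RPKM. The T cell genes Cd3e and Cd3d reached at most 3 counts and 1 count and Lck at most 0.18 RPKM, while Trac read 1.96 to 14.3 RPKM, and it rose by 1.36 with TGF-β2 in KO (adjusted p = 0.0121). The keratinocyte list was led by Krt10 at 0.441 to 0.885 and Dsp at 0.0237 to 0.405 RPKM, the Schwann and melanocyte list by Pmel at 0.305 to 0.648 RPKM, and the adipocyte list by Cebpa at 0.684 to 6.13 and Fabp4 at 0.156 to 5.56 RPKM. The myeloid list was led by Lyz2 and, next, Tyrobp at 1.07 to 7.23 RPKM. The pericyte and smooth muscle list was led by Mcam at 47.7 to 137.5 and Myh11 at 16.3 to 47.9 RPKM. Its genes Cspg4, Notch3 and Des read 4.44 to 53.1, 0.767 to 6.06 and 0.94 to 7.95 RPKM. The pericyte genes Rgs5, Kcnj8 and Abcc9 reached at most 0.475, 0.328 and 0.134 RPKM. Of the list's 5 tested genes 3 passed in each genotype, 2 lower and 1 higher in WT and 1 lower and 2 higher in KO. Cspg4 was among the higher ones, by 2.19 in WT and 1.97 in KO. Of the skeletal muscle genes, Acta1, an actin, read 41.0 to 613 RPKM and rose by 2.71 in WT and 2.33 in KO, Tnnt3 0.487 to 1.02 RPKM, and the muscle regulators Myod1, Myog and Pax7 at most 0.04, 0.0184 and 0.00469 RPKM. The part of other cell types in the marker values was not tested beyond these levels.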

How the data were processed

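RNA of primary mouse skin fibroblasts was sequenced as single-end reads. Per the methods and the submitters' processing notes, the authors demultiplexed with CASAVA 1.8.2, aligned to GRCm38 with STAR 2.4, discarding multi-mapping reads, and counted reads per gene with featureCounts 1.4.6. The deposited table holds raw counts of 21556 genes in 12 libraries with no normalization, and no column was left without a sample. Symbols and merged exon lengths came from GENCODE M21, which matched all 21556 identifiers, with 457 lengths taken from all transcripts of a gene.

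From the counts, TMM factors and edgeR 4.0.16 quasi-likelihood tests (R 4.3.3) were computed for the 2 groups of each comparison, on genes whose average reached 1 RPKM in either group, with Benjamini-Hochberg adjustment over all of them at 0.05. The interaction used all 12 libraries. Genes under the filter were compared by a two-sided exact permutation test of log2(CPM + 0.5). Intervals of ratios of summed reads are exact (Clopper-Pearson) at 95% and, like all counts without molecular identifiers, cover counting error only. The script was tested on simulated data. DESeq2 1.42.0, other scalings, filters and samples were tried as alternatives.

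Same-numbered KO control and TGF-β2 libraries deviated together (correlations of deviations 0.764, 0.689 and 0.741), which is the source of the pairing used for KO. The labels do not say what a number stands for.

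Named genes were the 10 markers, Nox4, up to 4 passing genes with the largest WT change per lineage list, the 2 highest genes per list of other cells, and the 2 genes most like each tested marker. Other genes (Col1a1, Vim, Pdpn, Alpl, Cspg4, Notch3, Des, Acta2, Cnn1, Myl9, Postn and defining markers of other cells) were named after their values were seen. A gene that the rule named in each of 2 lists is not reported here. The markers and lists were chosen with earlier results of these data known. Promoter sequences came from RefSeq (GRCm38.p6).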

Additional observations from a re-analysis of the deposited data

How the results depend on the processing

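Alternatives were DESeq2, edgeR's older quasi-likelihood and exact tests, other scaling factors, other filters, the replicate block, all 12 libraries in each fit, a 2-fold minimum, and leaving out each library. TMM on whole-table totals, the block within each genotype for the interaction, and the edgeR fits of Prdm1 and Dpp4 were added after seeing the data. In WT the 4 passing markers became 2 at 2-fold and 7 with the replicate block, where 28.8% of all genes passed and Dlk1, Islr and Dpt were gained (adjusted p = 0.0127, 0.0155 and 0.0411), and 1 to 3 when a library was left out, with 1 without the first TGF-β2 library. In KO the 5 became 3 at 2-fold and 8 with the replicate block, which ended no call there. WT replicate numbers were not taken as pairs (correlations of deviations 0.043, 0.412 and 0.516), and the block changed no call of a marker between genotypes or in the interaction. With the filter at 0.1 RPKM more genes were tested, and upper dermis calls became 6 in WT and 5 in KO and those of the Pi16 and Dpt programme 4 in WT.

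Signs turned only for differences that did not pass, and the cause was not tested. Lrig1 in control KO against WT was -0.0020 with the block and -0.0014 over all 12 libraries. The interaction of Ly6a was -0.0029 in DESeq2, -0.0028 with RLE, -0.049 with upper-quartile factors, -0.052 by library size, -0.029 with no filter, -0.0054 with filterByExpr, -0.0015 at 0.1 RPKM, -0.065 with the block and -0.017 with the block within genotype. That of Lrig1 was -0.024 with upper-quartile factors and -0.032 by library size. Leaving out 1 library gave -0.66 to 0.10 for Pi16 with TGF-β2 in KO. Between genotypes in control it gave -0.25 to 0.26 for Ly6a, -0.088 to 0.14 for Lrig1 and -0.52 to 0.19 for Pi16. Between genotypes with TGF-β2 it gave -0.26 to 0.19 for Ly6a, -0.092 to 0.19 for Lrig1, -0.0011 to 0.26 for Cd34 and -0.66 to 0.055 for Pi16. In the interaction it gave -0.33 to 0.24 for Ly6a, -0.63 to 0.054 for Cd34, -0.53 to 0.23 for Pi16, -0.66 to 0.36 for Dlk1, -0.13 to 0.18 for Lrig1 and -0.36 to 0.19 for Dpt. With 3 libraries a group and 24 to 79 reads of Dpp4 and 1 to 43 of Prdm1 per library, small differences of these genes were not detectable.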
